A study of Homo sapiens with 6 samples.

Results

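The ISG15 conjugation system was followed as 7 genes, taken by name from a deposited table of 58395 genes, and all 7 were found there once. They encode the ubiquitin-like modifier ISG15, its activating enzyme UBA7, its conjugating enzyme UBE2L6, the ligases HERC5, HERC6 and TRIM25, and the protease USP18. RNA was sequenced from 786-O cells, a human clear cell renal carcinoma line without functional VHL. A group of 3 libraries came from sgControl cells, given a control guide, and another 3 from sgPLOD2 cells, labelled as a knockout of PLOD2, the gene of lysyl hydroxylase 2. Both groups were grown in the same medium with serum, and the labels name no interferon or other agent in either. The labels give neither the guide sequences nor whether the cells were a pool or a clone, and they do not say that replicates came from separate cultures. The p-values therefore rest on a spread between libraries that may be technical. The groups also differed by chromosome, with median log2 fold changes from -0.21 (chromosome 22) to 0.33 (chromosome 3) on those that carry a member, so a difference in cell population and an effect of PLOD2 loss cannot be told apart. Levels are FPKM, fragments scaled to gene length and to the mapped total of the library, so levels of different genes are compared per length.

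ISG15 is made as a precursor and then joined to lysines of other proteins in a relay like that of ubiquitin. UBA7 activates it, UBE2L6 carries it, and a ligase, in human cells chiefly HERC5, hands it to the target. USP18 takes it off again and, apart from that, holds back signalling at the type I interferon receptor. The genes of the system are known as interferon-stimulated genes, switched on by transcription factors such as STAT2 and IRF9, and free ISG15 also leaves the cell and acts as a cytokine.

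The promoters of 3 members are shown because ISG15 and HERC5 went opposite ways and HERC6 lies beside HERC5. They come from RefSeq on GRCh38.p14 and run from 250 bases before the RefSeq gene start to 50 after it. That start can differ from the one in the deposited coordinates. Windows were found for 5 of the 7 members, the others being UBA7 and USP18. Capitals mark the core of the interferon-stimulated response element on either strand, searched as GAAA, 2 bases of any kind and GAAA. On the reverse strand it reads TTTC, 2 bases of any kind and TTTC. The windows are chr1:1013247-1013546 (plus strand) for ISG15, chr4:88456869-88457168 (plus strand) for HERC5 and chr4:88378602-88378901 (plus strand) for HERC6.
ISG15: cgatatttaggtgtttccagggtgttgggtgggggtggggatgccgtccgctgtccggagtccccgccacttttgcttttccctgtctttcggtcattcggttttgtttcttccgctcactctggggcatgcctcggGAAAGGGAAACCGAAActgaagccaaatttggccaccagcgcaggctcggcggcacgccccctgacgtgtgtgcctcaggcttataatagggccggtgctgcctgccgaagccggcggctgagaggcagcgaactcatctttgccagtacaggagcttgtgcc
HERC5: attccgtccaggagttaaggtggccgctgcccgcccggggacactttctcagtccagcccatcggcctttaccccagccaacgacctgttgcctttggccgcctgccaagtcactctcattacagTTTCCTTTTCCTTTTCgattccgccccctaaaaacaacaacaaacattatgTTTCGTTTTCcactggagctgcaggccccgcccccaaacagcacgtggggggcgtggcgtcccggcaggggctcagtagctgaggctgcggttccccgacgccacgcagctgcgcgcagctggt
HERC6: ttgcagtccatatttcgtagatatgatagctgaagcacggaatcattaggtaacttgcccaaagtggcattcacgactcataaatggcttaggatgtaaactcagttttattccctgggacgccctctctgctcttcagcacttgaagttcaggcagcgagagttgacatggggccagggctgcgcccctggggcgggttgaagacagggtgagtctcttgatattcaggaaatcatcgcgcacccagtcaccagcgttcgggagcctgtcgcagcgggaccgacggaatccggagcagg
ISG15 held 2 overlapping matches on its own strand, starting 113 and 107 bases before the gene start. HERC5 held 3 matches on the reverse strand, at 125, 119 and 74 bases before the start, of which the 2 farthest overlap. No match lay in the windows of HERC6, TRIM25 or either start of UBE2L6. Of all 35116 RefSeq promoter windows of this length, 3.57% held the motif. Among the other interferon-stimulated genes listed, 31 of the 42 with a window held it at any of their starts. That count is by gene, whereas the 3.57% is by window, and a gene can have several windows. TTCNNNGAA, the gamma-activated site, which is its own reverse complement, was in none of the members' windows and in 7.66% of all windows. A match is a stretch of letters, and binding was not measured.

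The modifier and its protease fell steeply, the conjugating enzyme fell slightly, 1 ligase rose, and the activating enzyme and the other ligases were not called. Genes whose mean reached 1 FPKM were tested with limma on log2(FPKM + 1), and a call is a Benjamini-Hochberg adjusted p under 0.05 over all 10469 genes tested. Log2 fold changes are sgPLOD2 minus sgControl on that scale, where changes of weakly expressed genes come out too small. All 7 members were tested: 3 were called lower (ISG15, USP18 and UBE2L6) and 1 higher (HERC5). HERC5 reached a mean of 1 FPKM only through the sgPLOD2 libraries. Among all genes tested, 23.5% were called lower, 29.5% higher and 52.9% in either direction, so the members' share of calls was near the background. The members' median log2 fold change was -0.32, against 0.06 for all genes tested. The libraries of both groups did not overlap in 4 members, 3 with sgPLOD2 lower and 1 with it higher. Among all genes tested, 28.0% were lower and 34.7% higher without overlap, or 62.7% together.

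**Figure D1:**
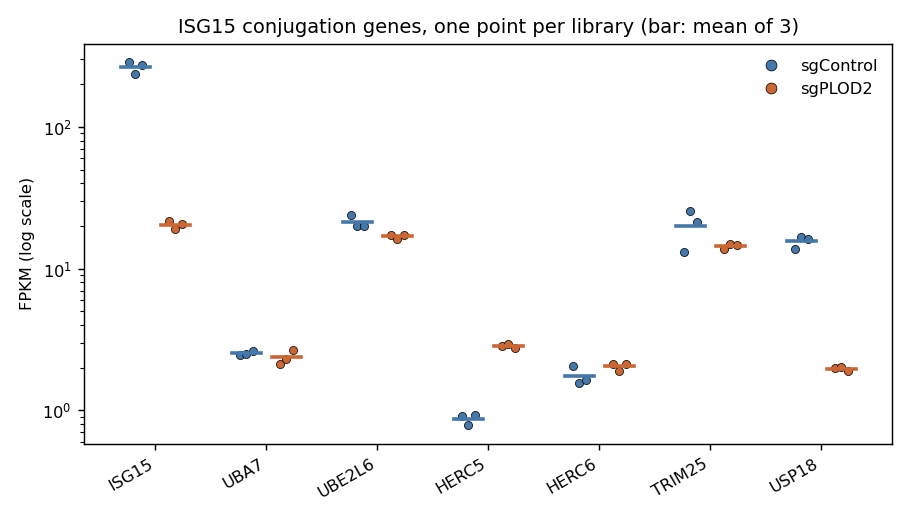
FPKM of the 7 genes in each library on a log axis, with a bar for the mean of the 3 libraries of a group (blue sgControl, orange sgPLOD2). ISG15 fell from 266 to 20.4 FPKM and USP18 from 15.6 to 1.97, HERC5 rose from 0.875 to 2.85, and in TRIM25 a single sgControl library at 13.1 FPKM lies below the sgPLOD2 libraries.

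The modifier itself was the most abundant member and fell the most. ISG15 (ENSG00000187608; GRCh38, chromosome 1, 1001138 to 1014540, plus strand, protein-coding) had 287, 238 and 274 FPKM in the control libraries, against 21.6, 18.9 and 20.6 FPKM in sgPLOD2. All sgPLOD2 libraries lay far below all sgControl libraries, and the groups did not overlap. In bulk RNA, fewer expressing cells and less RNA per cell cannot be told apart, here and for the other genes. The group means were 266 ± 25.1 and 20.4 ± 1.35 FPKM (SD, n = 3 each), a fall to 7.65% of control. This was a log2 fold change of -3.64 ± 0.10 (SE; limma adjusted p = 1.28e-06). By level, ISG15 ranked between 124 and 142 among the 10469 tested genes in sgControl and between 1919 and 2134 in sgPLOD2. The annotated antisense transcript AL645608.1 and the pseudogene AL645608.3 overlap it on the opposite strand. They were listed at no more than 0.139 and 0.329 FPKM in any library.

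USP18, which removes ISG15 from proteins, also fell. USP18 (ENSG00000184979; chromosome 22, 18150170 to 18177397, plus strand) had 13.8, 16.8 and 16.2 FPKM in the control libraries, against 2.00, 2.01 and 1.90 FPKM in sgPLOD2. The groups were far apart, and the sgPLOD2 libraries were nearly level. Means were 15.6 ± 1.57 and 1.97 ± 0.0628 FPKM (SD, n = 3 each), or 12.6% of control, and the log2 fold change was -2.48 ± 0.10 (SE; limma adjusted p = 4.88e-06). USP18 has a near-identical copy, USP41, on the same chromosome, and reads may have been split between them. USP41 was listed at 0.0556, 0.266 and 0.647 FPKM in the control libraries, against 0, 0 and 0.0142 FPKM in sgPLOD2, too low to be tested, so nearly all of the signal was assigned to USP18.

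UBE2L6, the conjugating enzyme that takes ISG15 over from UBA7, fell by a small amount. UBE2L6 (ENSG00000156587; chromosome 11, 57551656 to 57568284, minus strand) had 23.8, 20.1 and 20.1 FPKM in the control libraries, against 17.4, 16.1 and 17.2 FPKM in sgPLOD2. The groups did not overlap, but the gap between them was only a few FPKM. With means of 21.3 ± 2.15 and 16.9 ± 0.709 FPKM (SD, n = 3 each), the level fell to 79.2% of control (log2 fold change -0.32 ± 0.09 SE, limma adjusted p = 0.0267). The call was lost without any 1 of the sgPLOD2 libraries (adjusted p 0.0581 to 0.0924), under TPM, which sets every library to the same total (0.0918, or 0.0731 without mitochondrial and ribosomal protein genes), with quantile normalization (0.0655) and in a fit freed of the dependence of changes on GC content and length, called the detrended fit here. In the detrended fit the log2 fold change was -0.04 (adjusted p = 0.753).

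UBA7, the enzyme at the head of the relay, showed no called change. UBA7 (ENSG00000182179; chromosome 3, 49805209 to 49813953, minus strand) had 2.46, 2.50 and 2.63 FPKM in the control libraries, against 2.14, 2.32 and 2.65 FPKM in sgPLOD2. The highest library was a sgPLOD2 one, and so was the lowest. The log2 fold change was -0.07 ± 0.09 (SE; limma adjusted p = 0.536), and its sign turned under TPM (0.03) and in the detrended fit (0.06). Tested genes of chromosome 3 had a median log2 fold change of 0.33. With each chromosome's median taken off, UBA7 stood at -0.40 and was called lower (adjusted p = 0.00981).

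HERC5, the ligase that joins most ISG15 to its targets in human cells, rose from the lowest level in the system. HERC5 (ENSG00000138646; chromosome 4, 88457119 to 88506163, plus strand) had 0.915, 0.782 and 0.928 FPKM in the control libraries, against 2.85, 2.92 and 2.76 FPKM in sgPLOD2. All sgPLOD2 libraries lay well above all sgControl libraries, and both groups were tight. Means were 0.875 ± 0.0805 and 2.85 ± 0.0796 FPKM (SD, n = 3 each), a 3.25-fold higher level. On log2(FPKM + 1) the change was 1.04 ± 0.08 (SE; limma adjusted p = 9.71e-05), and 1.60 with a pseudocount of 0.1. HERC5 was called higher in all 18 alternative fits in which it was tested. Its sgControl mean lay below 1 FPKM, so it passed the filter only through the group where it was high. With no filter it was also called (limma adjusted p = 0.000585). The median of tested genes on chromosome 4 was 0.20, and 0.83 remained for HERC5 once it was taken off.

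HERC6, a relative of HERC5 that lies 14.0 kb away on the same strand, did not show this rise. HERC6 (ENSG00000138642; chromosome 4, 88378739 to 88443097, plus strand) had 2.04, 1.57 and 1.62 FPKM in the control libraries, against 2.11, 1.88 and 2.14 FPKM in sgPLOD2. The groups overlapped, through the sgControl library at 2.04. The log2 fold change was 0.15 ± 0.10 (SE; limma adjusted p = 0.227), with a turned sign under quantile normalization (-0.01), with chromosome medians removed (-0.05) and in the detrended fit (-0.05). Within each library, HERC5 stood at 0.449 to 0.571 times HERC6 in sgControl and at 1.29 to 1.55 times HERC6 in sgPLOD2, in FPKM. As a difference of log2(FPKM + 1) values, HERC5 minus HERC6 was -0.55 ± 0.11 in sgControl and 0.34 ± 0.09 in sgPLOD2 (SD, n = 3 each), a shift of 0.88 ± 0.08 (SE). A 2-sided exact permutation test on these libraries had p = 0.1, the minimum for 3 against 3, or 0.2 when adjusted over the 4 ratios tested.

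TRIM25, a ligase for ISG15 and, with ubiquitin, for the RNA sensor RIG-I, varied most of the members within a group, relative to its level. TRIM25 (ENSG00000121060; chromosome 17, 56836387 to 56914080, minus strand) had 13.1, 25.6 and 21.5 FPKM in the control libraries, against 13.8, 14.8 and 14.7 FPKM in sgPLOD2. The groups overlapped because sgControl replicate 1 was the lowest library of all. Means were 20.1 ± 6.38 and 14.4 ± 0.530 FPKM (SD, n = 3 each), and the log2 fold change of -0.40 ± 0.22 (SE) was not called (limma adjusted p = 0.161). Without sgControl replicate 1 it was -0.66 and called lower (adjusted p = 0.00209), and in the detrended fit -0.68 (0.0401). Without sgControl replicate 2 it was -0.21 (adjusted p = 0.407). In sgControl replicate 1, mitochondrial transcripts made up 12.9% of FPKM, against 6.01% to 7.5% in the other libraries, and the part of this difference in the TRIM25 value was not tested. The annotation places DGKE, on the opposite strand, and C17orf67, on the same strand, over part of TRIM25, and both were listed below 1 FPKM in every library.

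The authors' deposited table, whose tool is not given in the sources used here, made the same calls for 6 members and also called TRIM25. It gave log2 fold changes of -3.80 for ISG15, -3.08 for USP18, -0.43 for UBE2L6 (adjusted p = 0.0102) and 1.60 for HERC5. In the authors' deposited table TRIM25 had -0.57 and an adjusted p of 0.0431, while UBA7 (0.423) and HERC6 (0.619) were not past 0.05. Of the 22870 genes with an adjusted p in the authors' deposited table, 35.5% were below 0.05.

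The order and proportions of the members changed with these shifts. In sgControl the order by mean FPKM was ISG15, UBE2L6, TRIM25, USP18, UBA7, HERC6 and HERC5. The libraries of UBE2L6, TRIM25 and USP18 overlapped in that order, and the other neighbouring levels did not. In sgPLOD2 the order was ISG15, UBE2L6, TRIM25, HERC5, UBA7, HERC6 and USP18, and only UBA7, HERC6 and USP18 overlapped with the next. ISG15 made up 81.0% ± 2.81 of the members' summed FPKM in sgControl and 33.4% ± 1.41 in sgPLOD2 (SD, n = 3 each). The other 6 members together went from 62.2 ± 5.65 to 40.6 ± 0.701 FPKM.

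Set against its conjugating enzyme, ISG15 went from 11.9 to 13.7 times the FPKM of UBE2L6 in sgControl libraries to 1.18 to 1.24 times in sgPLOD2 libraries. Set against the protease, ISG15 minus USP18 in log2(FPKM + 1) was 4.01 ± 0.26 in sgControl and 2.85 ± 0.10 in sgPLOD2 (SD, n = 3 each). That shift of -1.16 ± 0.16 (SE) had an exact permutation p of 0.1 (2-sided, 0.2 adjusted over the 4 ratios), and with a pseudocount of 0.1 it was -0.78. USP18 had 5.61 to 6.71 times the FPKM of UBA7 in sgControl and 0.716 to 0.935 times in sgPLOD2, so their order turned. Of the pairs formed with a relative that serves ubiquitin, neither shifted beyond its spread. UBE2L6 minus UBE2L3, the ubiquitin enzyme closest to it, changed by -0.04 ± 0.06 (SE; exact permutation p = 0.5), and UBA7 minus UBA1, the main ubiquitin-activating enzyme, by 0.02 ± 0.03 (SE; exact permutation p = 0.6).

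Among the other modifier genes that were tested, none changed as much as ISG15. Of 11 tested genes of ubiquitin and ubiquitin-like modifiers besides ISG15, 3 were called higher and 3 lower, with a median log2 fold change of 0.03. Over all genes tested, 29.5% were called higher and 23.5% lower. URM1 fell from 16.1 ± 0.278 to 8.23 ± 0.546 FPKM and UFM1 from 8.95 ± 2.95 to 4.09 ± 0.141 FPKM (SD, n = 3 each; limma adjusted p = 0.000211 and 0.00621). NEDD8, which activates cullin ligases, had 15.0 ± 0.491 and 19.7 ± 2.76 FPKM (log2 fold change 0.36, limma adjusted p = 0.0287). That call was lost in 8 alternatives, and in 1 of them, with chromosome medians removed, the sign turned (-0.18, adjusted p = 0.229). UBD, an interferon-inducible modifier also called FAT10, was below the level for testing, at 0.827, 0.957 and 1.35 FPKM in the control libraries, against 0, 0.0527 and 0 FPKM in sgPLOD2. In sgControl, ISG15 stood at 0.920 to 1.02 times the ubiquitin gene UBB and at 16.4 to 19.2 times NEDD8. In sgPLOD2 it stood at 0.0546 to 0.0633 times UBB and 0.962 to 1.12 times NEDD8.

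**Figure D2:**
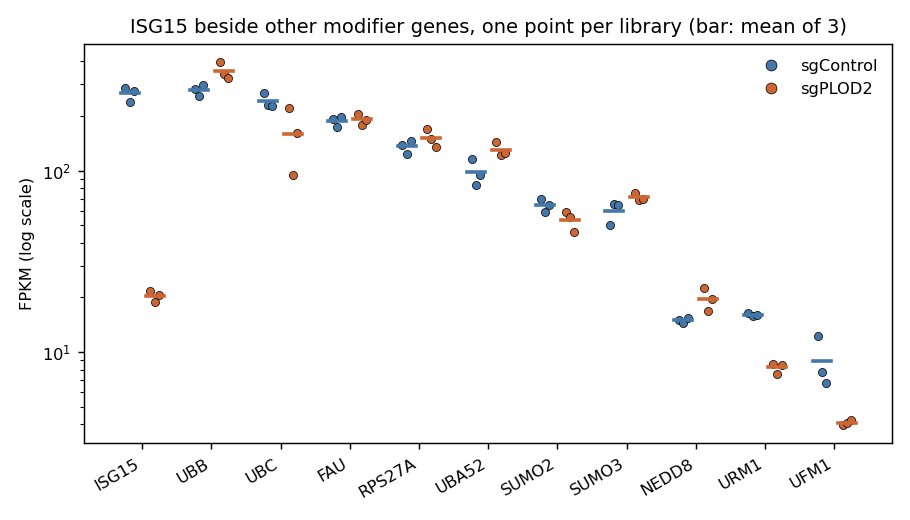
FPKM on a log axis of ISG15 and 10 other modifier genes in each library, with a bar for the mean of the 3 libraries of a group (blue sgControl, orange sgPLOD2). ISG15 moved from the level of the ubiquitin gene UBB (0.920 to 1.02 times) to that of NEDD8 (0.962 to 1.12 times).

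Relatives of the enzymes and other proteins tied to the pathway included rises and no called falls. Of 9 tested relatives, 5 rose and 4 were not called, where 29.5% of all genes tested were called higher and 23.5% lower. UBA6, another activating enzyme for ubiquitin, went from 4.37 ± 0.842 to 10.9 ± 1.34 FPKM, and UBA2, which acts on another ubiquitin-like modifier, from 13.2 ± 1.29 to 21.7 ± 1.98 FPKM (SD, n = 3 each). Their log2 fold changes were 1.15 and 0.67, and 0.69 and 0.41 in the detrended fit. HERC1 and HERC4 were called higher (log2 fold changes 0.53 and 0.38), but turned to -0.06 and -0.03 in the detrended fit. HERC1 passed the filter only through the sgPLOD2 libraries, the group where it was high. HERC3, a small relative on chromosome 4 below the level for testing, had 0.459, 0.748 and 0.741 FPKM in the control libraries, against 1.24, 1.33 and 1.41 FPKM in sgPLOD2. The groups did not overlap for HERC3, where 34.7% of all genes tested were higher without overlap. UBA1 had 67.2 ± 0.485 and 63.3 ± 3.78 FPKM and UBE2L3 49.6 ± 6.63 and 40.6 ± 1.85 FPKM, and neither was called. UBE2L3 was called lower with median-of-ratios scaling (-0.34, adjusted p = 0.0362).

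Of 6 tested pathway partners, 3 rose, where 29.5% of all genes tested were called higher. The 3 were the ubiquitin-conjugating enzymes UBE2E1 and UBE2E2 (log2 fold changes 0.89 and 0.72) and the protease USP24 (1.16). All were still called with chromosome medians removed, UBE2E1 at 0.56 and UBE2E2 at 0.39, and in the detrended fit, USP24 at 0.58. ARIH1, a ligase that can also use ISG15, was below the level for testing, with 0.463, 0.580 and 0.561 FPKM in the control libraries, against 0.939, 0.893 and 1.03 FPKM in sgPLOD2. Its libraries did not overlap and sgPLOD2 was the higher group, where 34.7% of all genes tested were higher without overlap. Of the LFA-1 receptor through which free ISG15 acts on immune cells, ITGAL was listed at 0 in 5 of 6 libraries and ITGB2 was below 1 FPKM in all of them. ITGB2 was lower in sgPLOD2 without overlap, at means of 0.886 in sgControl and 0.540 FPKM in sgPLOD2. Among all genes tested, 28.0% were lower without overlap.

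Genes of interferon signalling, which drives the system, were mostly called lower. Of 13 tested, 8 fell, 2 rose and 3 were not called, with a median log2 fold change of -0.41. The shares over all genes tested were 23.5% lower and 29.5% higher. The transcription factor gene STAT2, whose product carries the receptor's signal to the nucleus, fell from 5.71 ± 1.11 to 2.32 ± 0.287 FPKM (SD, n = 3 each), with a limma adjusted p of 0.00114. IRF9, its DNA-binding partner, had 2.54, 2.85 and 9.75 FPKM in the control libraries, against 1.86, 0.709 and 1.08 FPKM in sgPLOD2. A single sgControl library was far above the others, and the call (log2 fold change -1.28, limma adjusted p = 0.0383) was lost without sgPLOD2 replicate 2 (0.117) or 3 (0.103), with no filter (0.112), with robust estimation (0.0524) and in the detrended fit (0.0774). Without that high library, sgControl replicate 3, the change was -0.77 (adjusted p = 0.0289). IRF7, which amplifies interferon production, fell from 6.84 ± 1.17 to 0.329 ± 0.105 FPKM (limma adjusted p = 1.18e-05). It passed the filter only through the sgControl libraries. The receptor-bound kinase gene JAK1 rose by 0.57 on the log2 scale (limma adjusted p = 0.00312, or 0.0695 in the detrended fit). IFNAR2, the receptor chain at which USP18 acts, had 9.41 ± 1.29 and 7.67 ± 2.66 FPKM and was not called (adjusted p = 0.265), except without sgPLOD2 replicate 1 (-0.54, 0.0222).

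In the RIG-I pathway, where TRIM25 acts, the sensors fell and the adaptor rose. Of 9 tested genes, 4 fell, 1 rose and 4 were not called, where 23.5% of all genes tested were called lower and 29.5% higher. DHX58, which modulates the sensors, fell from 2.72 ± 0.0207 to 0.274 ± 0.0218 FPKM and the sensor IFIH1 from 3.16 ± 0.197 to 1.31 ± 0.0875 FPKM (SD, n = 3 each). DHX58 passed the filter only through the sgControl libraries. DDX58, the gene of RIG-I itself, fell from 2.73 ± 0.465 to 1.44 ± 0.255 FPKM (log2 fold change -0.61, limma adjusted p = 0.00613). The kinase gene IKBKE fell by 1.03 on the log2 scale. MAVS, the mitochondrial adaptor, rose from 5.59 ± 0.744 to 10.2 ± 0.953 FPKM (log2 fold change 0.76, limma adjusted p = 0.00162), which was 0.30 and not called in the detrended fit (adjusted p = 0.0703).

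Among interferon-stimulated genes, on the log2(FPKM + 1) scale, ISG15 and USP18 were near the steep end and the other members near the flat end. Of 43 tested interferon-stimulated genes outside the system, 34 fell, 0 rose and 9 were not called, with a median log2 fold change of -1.14. A further 7 were below the level for testing. Several of those that fell, among them IFI27, OAS2 and MX1, had an sgPLOD2 mean below 1 FPKM. These passed the filter only through the sgControl libraries, the group where they were high. Over all genes tested, 23.5% were called lower and 29.5% higher. With the 7 members added, 50 genes were ordered by log2 fold change on that scale, from the largest fall upward. ISG15 was at position 4, after IFI27, BST2 and IFI6, and USP18 at position 9. TRIM25 was at position 36, UBE2L6 at 37 and UBA7 at 46. HERC6 and HERC5 held positions 49 and 50, the upper end of the list, and no other gene of the 50 than HERC5 was called higher. BST2, which tethers budding virus, had a log2 fold change of -4.06, IFI6 of -3.79, and the antiviral genes OAS2 and MX1 of -3.14 and -2.91. The order depends on the pseudocount. With 0.1, OAS2 was at -5.57 and MX1 at -5.12, both below ISG15 at -3.70. In mean FPKM, ISG15 fell 13.1-fold, OAS2 103-fold and MX1 62.6-fold.

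**Figure D3:**
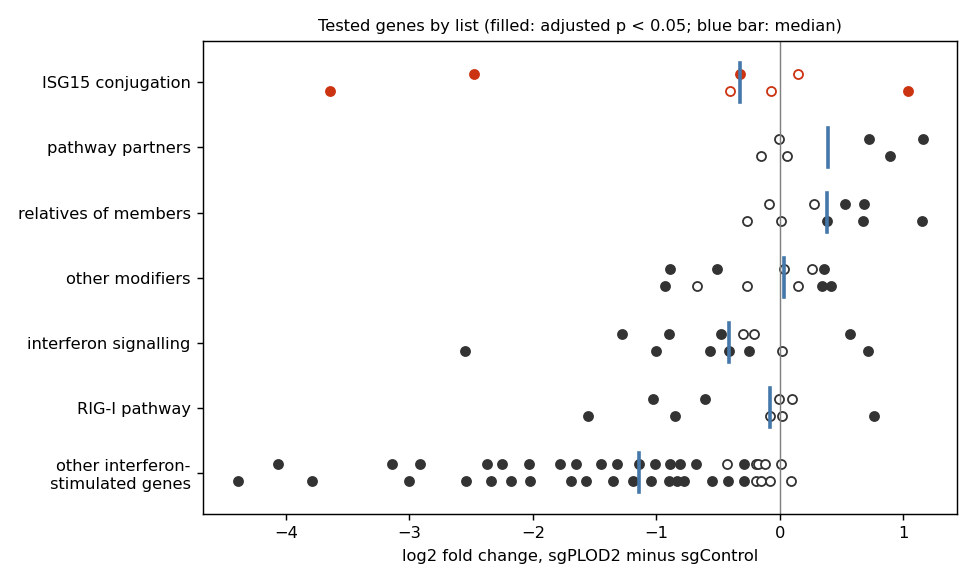
Log2 fold change, sgPLOD2 minus sgControl, of each tested gene in the ISG15 system (red) and 6 companion lists; filled points had an adjusted p under 0.05, and blue bars are list medians. ISG15 at -3.64 and USP18 at -2.48 lie with the interferon-stimulated genes of largest fall on log2(FPKM + 1), and HERC5 at 1.04 is to the right of all of that list.

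By pattern over the 6 libraries, ISG15 was closest to genes of other functions that fell by a like amount on the log2(FPKM + 1) scale. The measure was the root mean square difference of log2(FPKM + 1) values centred on each gene's mean, and with 2 groups it rests mostly on the difference between them. The 5 nearest tested genes were TYMP (0.052), CLEC4O (0.069), MGMT (0.093), CCL20 (0.101) and LAYN (0.115). In FPKM all 5 fell by a larger factor than ISG15, because the pseudocount shrinks falls that end near 0. TYMP went from 23.1 to 0.906 FPKM and MGMT from 11.4 to 0.0247 FPKM, against 266 to 20.4 FPKM for ISG15. USP18 was number 36 in that order (0.604), and UBE2L6 number 2448. The genes nearest to HERC5 were PGBD1 (0.023), RHNO1 (0.024), SDAD1 (0.032), SIPA1L1 (0.039) and ANKMY2 (0.041). HERC6 was number 3996 from HERC5 (0.45).

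Neighbouring genes were read because the groups differed along chromosomes. The 3 tested genes on each side of each member gave 36 neighbours outside the system, of which 15 were called higher, 9 lower and 12 not called. The shares over all genes tested were 29.5% higher and 23.5% lower. Around ISG15, 5 of 6 neighbours were called lower, with a median log2 fold change of -0.96. HES4, the gene of a transcriptional repressor, 0.966 kb from the annotated ISG15 gene, stood at -1.58 and AL645608.7 at -1.57. The heparan sulfate proteoglycan gene AGRN, 5.58 kb away, stood at -0.97. The annotated ISG15 gene begins at 1001138, well before the printed promoter window at 1013247, so HES4 lies farther from that window. ISG15 at -3.64 lay below all of them. In the detrended fit HES4 was at -0.94, AL645608.7 at -1.02, AL390719.1 at -0.39 and C1orf159 at -0.10, the last no longer called (adjusted p = 0.524), and ISG15 at -3.22. The part of this region in the fall of ISG15 was not tested.

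Around the other members the neighbours went other ways. USP18, at -2.48, lay between PEX26 (0.17, adjusted p = 0.428), which is 18.8 kb away, and DGCR5 (-1.97), which is 793 kb away. UBE2L6 was the only gene of its stretch called lower, with 4 of 6 neighbours called higher, among them SLC43A1 (0.84) and TIMM10 (0.43). With chromosome medians removed, TIMM10 (0.24, adjusted p = 0.0926) and MED19 (0.18, 0.0988) were no longer called. Of the 6 neighbours of UBA7, 4 were called higher and AMIGO3 lower (-0.30, adjusted p = 0.0444, not called in 11 alternatives, among them the detrended fit at 0.05). With chromosome medians removed, none of those 4 rises was called (IP6K1, TRAIP, MON1A and RBM6, 0.08 to 0.26), whereas AMIGO3 was, at -0.63. Around HERC5 and HERC6, the osteopontin gene SPP1 (-0.81) and PYURF (-0.43) were called lower and PKD2 (1.17) and TIGD2 (0.57) higher. The PKD2 call was lost in 7 alternatives, among them without any 1 of the sgPLOD2 libraries (adjusted p 0.056 to 0.0851), and without sgControl replicate 1 its value was 0.72. PYURF is 14.8 kb from HERC5 on the opposite strand. HERC3, on the same chromosome and higher in sgPLOD2, was below the level for testing, so it was not among the neighbours read. NOG, 241 kb from TRIM25, rose by 1.70, and COIL, 24.1 kb away, by 0.70, on the log2 scale.

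**Figure D4:**
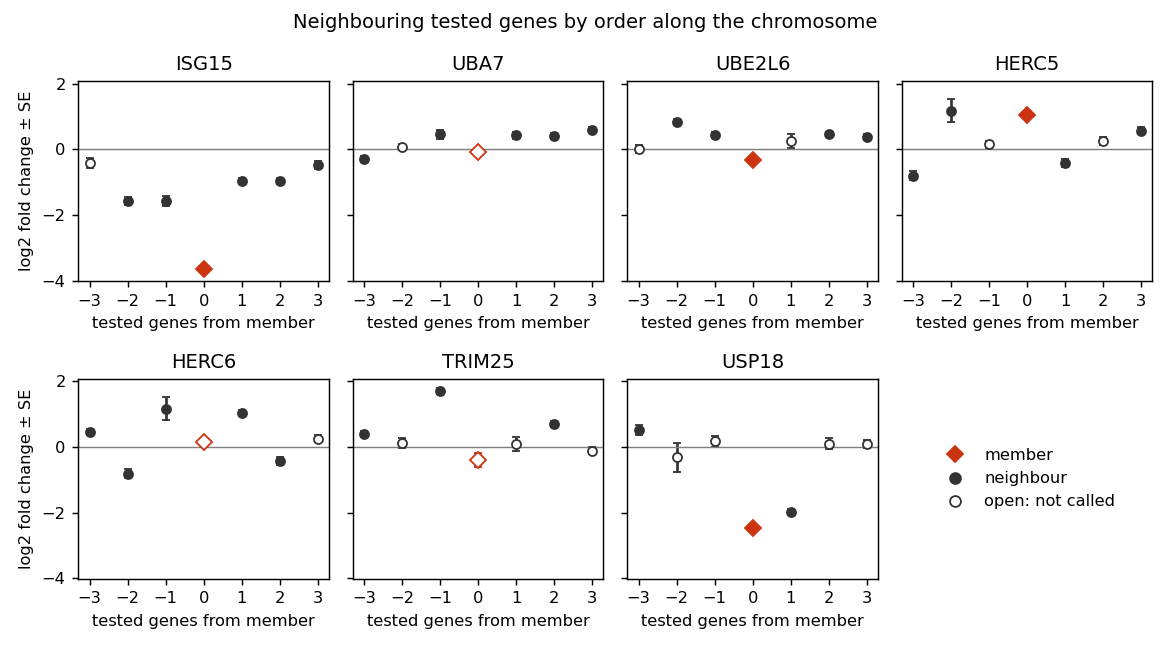
Log2 fold change ± SE of each member (red diamond, at 0) and of the 3 tested genes on each side, in their order along the chromosome; open symbols were not called. ISG15 at -3.64 sits in a stretch of falls with a median of -0.96, while HERC5 at 1.04 has HERC6 at 0.15 beside it.

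PLOD2 was lower in the targeted libraries, and the markers of the line were present in both groups. PLOD2 had 26.8, 25.7 and 21.5 FPKM in the control libraries, against 5.98, 10.1 and 6.64 FPKM in sgPLOD2, or 30.7% of control by their means. The log2 fold change was -1.61 ± 0.18 (SE; limma adjusted p = 0.000509). An exact permutation test had p = 0.1, the minimum for 3 against 3. All 7 markers of the line, PAX8, PAX2, VIM, EPAS1, CDH6, KRT8 and KRT18, were at 1.17 FPKM or more in every library. Markers of leukocytes, endothelium and fibroblasts stayed at or below 0.499 FPKM. The leukocyte markers summed to 0.105 to 0.157 FPKM in sgControl and 0.218 to 0.487 FPKM in sgPLOD2, with CD3E listed at 0 throughout. FPKM summed to between 229485 and 268612 per library.

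Across alternative settings, the calls of ISG15, USP18 and HERC5 held and the others were close to the threshold or absent. ISG15 was called lower in all 19 alternatives, at log2 fold changes of -3.72 to -3.22, and USP18 in all 19, at -2.92 to -2.27. HERC5 ranged from 0.83 to 1.60. UBE2L6 was called in 12 of 19, TRIM25 in 2 of 19, UBA7 in 1 of 18 and HERC6 in 0 of 18, where its adjusted p ranged from 0.0571 to 0.920.

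**Figure D5:**
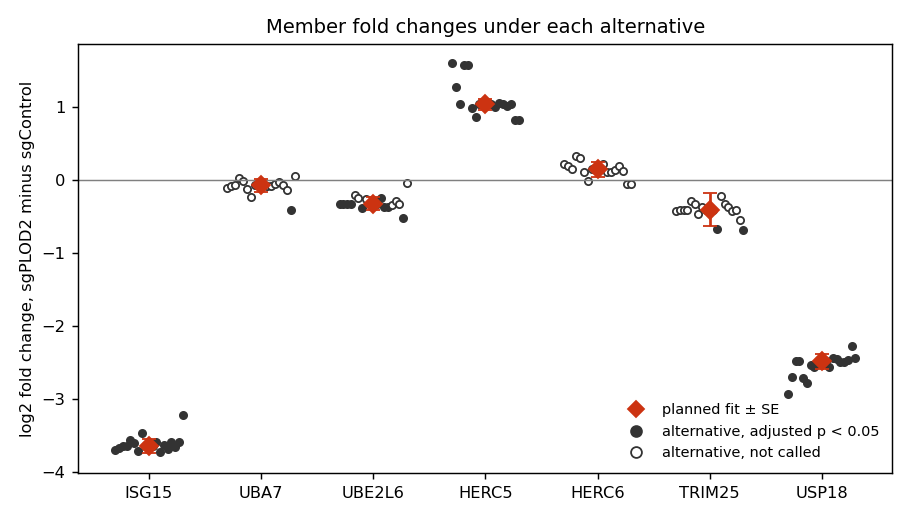
Log2 fold change of each member in the planned fit (red diamond ± SE) and in each alternative (circles, filled where the adjusted p was under 0.05). ISG15 (-3.72 to -3.22), USP18 (-2.92 to -2.27) and HERC5 (0.83 to 1.60) keep their side of 0, whereas UBA7 and HERC6 lie across it.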

How the data were processed

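RNA sequencing of 6 libraries, 3 per group, was analysed from the authors' deposited table. The submitters' processing notes name CASAVA, HISAT2 2.1.0, StringTie 1.3.4 and GRCh38, without roles; which tool counted, the strand setting and the annotation were not given in the sources used here, so reads of overlapping or near-identical genes may have been split. The authors deposited FPKM for each gene and library, per the file headers, with no recorded scaling between libraries. Per the file headers, the same deposited table holds a mean normalized count (a signal), a log2 fold change, its standard error and a test score, and p-values. In genes detected in 1 library the deposited mean normalized counts were whole multiples of a step per library (100% within 0.01), which gave relative size factors from 0.928 to 1.09. The number of reads per library is not known from these values, so no counting interval is given and no count test was run.

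Log2(FPKM + 1) was fitted with limma 3.58.1 in R 4.3.3 (lmFit, eBayes with an intensity trend), for genes whose mean reached 1 FPKM, 2-sided, with Benjamini-Hochberg adjustment. Exact permutation tests enumerated every assignment of the 6 libraries. The steps were tested on simulated data, in which far fewer genes were changed than were called in the real data. The fit recovered 28.4% of log2 changes of 0.5, 73.1% of changes of 1 and 93.9% of changes of 2. Of its calls, 5.8% were false. Small changes can therefore go uncalled. Chromosomes, strands and neighbours came from GENCODE 29 (GRCh38), which held 58275 of the identifiers and gave 49009 the deposited start; printed coordinates are the deposited ones. Promoters came from RefSeq, GRCh38.p14.

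As alternatives, the pseudocount was set to 0.1 or 0.5, the filter dropped or raised to 5 FPKM, and values rescaled as TPM, as TPM after leaving out mitochondrial and ribosomal protein genes (reduced TPM), or by median-of-ratios and quantile scaling. Fits without the trend, with robust estimation, with a replicate block, without each library and with each chromosome's median removed (chromosomes with at least 20 tested genes) were also run. The detrended fit, without a smooth trend on GC content and length (mgcv 1.9.3), was added after seeing the data. The members and all lists were chosen with earlier results of these data known. Named were the members, PLOD2, in each list the 4 genes of smallest adjusted p and 10 set by name, the called neighbours and the 5 nearest patterns; other genes were named with their values in view. Some genes that this rule picked are left out.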

Additional observations from a re-analysis of the deposited data

How the results depend on the processing

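ISG15, USP18 and HERC5 kept direction and call in every alternative in which they were tested, including the replicate block (adjusted p 0.000172, 0.000334 and 0.00171). The replicate block left 3 members called lower and 1 higher, and 5319 genes called in all against 5540 without it. It changed no call of a member; of the other genes recomputed with it, AMIGO3 lost its call (0.0802) and none gained or turned. Same-numbered libraries of both groups did not deviate together (correlations of 0.014, 0.135 and -0.049), so the numbers were not taken to pair them. With the block, the within-library shifts were 0.88 for HERC5 to HERC6, -0.04 for UBE2L6 to UBE2L3, 0.02 for UBA7 to UBA1 and -1.16 for ISG15 to USP18, in which 3 pairs cannot give an exact p under 0.25.

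At a minimum of 5 FPKM only 4 members were tested, so 0 were called higher, and 3010 genes were called in all. The UBA7 to UBA1 shift turned to -0.01 with a pseudocount of 0.1 and to -0.02 under TPM. Leaving out 1 library at a time gave 4227 to 5800 genes called in all, 2 to 4 members called lower and 1 called higher each time. UBA1 turned to 0.04 under TPM, 0.01 under reduced TPM and 0.04 with quantile normalization. For the genes recomputed in each setting, 12 values turned, 4 of which also lost a call, 66 lost a call with the same sign, 5 gained one and 1049 kept direction and call. The share of all calls that were higher was 55.7%, and 66.8% under TPM, 63.9% under reduced TPM, 49.9% with median-of-ratios or quantile scaling, 48.5% with chromosome medians removed, 48.1% in the detrended fit and 45.2% at a minimum of 5 FPKM. TPM moved the median log2 fold change of all tested genes from 0.06 to 0.20.

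UBA7 gave 0.03 under TPM and 0.06 in the detrended fit. HERC6 gave -0.01 with quantile normalization, -0.05 with chromosome medians removed and -0.05 in the detrended fit. NEDD8 gave -0.18 with chromosome medians removed, and in the detrended fit HERC1 gave -0.06, HERC4 -0.03 and AMIGO3 0.05. The causes were not tested.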
